A study of Mus musculus with 56 samples.

Results

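The transcripts described here encode 10 enzymes and regulators that break down the branched-chain amino acids leucine, isoleucine and valine: Bcat2, Bckdha, Bckdhb, Dbt, Bckdk, Ppm1k, Ivd, Acadsb, Mccc1 and Hibch. They were chosen by symbol, and all 10 were found among the 25939 genes of the table for mouse visceral adipose tissue (VAT). The 56 samples came from female C57BL/6J mice aged 9 weeks, which arrived at 7 weeks, were kept in 12 h of light and 12 h of dark with chow at will for 7 days, and then had food only by day (daytime-restricted feeding, DRF) or only by night (nighttime-restricted feeding, NRF, the control) for another 7 days. Tissue was taken every 4 h from zeitgeber time 0 (ZT0, lights on; ZT12 is lights off) to ZT24, from 4 mice per regimen and time point. Every library was made from polyA RNA of 1 mouse, no mouse carried a transgene or other engineered allele by its labels, and no regimen with food at all hours was included. The question was how strongly feeding by day moved the level and the 24-h rhythm of these transcripts.

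Branched-chain amino acids are among the few amino acids that are broken down mainly outside the liver, and adipose tissue is one of the sites. Bcat2, the mitochondrial aminotransferase, first turns them into branched-chain keto acids. The branched-chain keto acid dehydrogenase (BCKDH) complex then commits these to oxidation in a step that cannot be reversed; Bckdha and Bckdhb encode the subunits of its decarboxylase, and Dbt its acyltransferase core. The kinase Bckdk phosphorylates the complex and switches it off, and the phosphatase Ppm1k removes the phosphate and switches it on. Beyond the complex the 3 amino acids take separate routes. Ivd and Mccc1 act on the leucine route, Acadsb on that of isoleucine and Hibch on that of valine.

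The genes lie on 6 chromosomes of GRCm38, and each is protein coding. Bcat2 (ENSMUSG00000030826) spans chr7:45570153-45589711 on the plus strand, and Ppm1k (ENSMUSG00000037826) spans chr6:57506502-57535468 on the minus strand. Bckdk (ENSMUSG00000030802, chr7:127904082-127910221), Bckdha (ENSMUSG00000060376, chr7:25629946-25658981) and Acadsb (ENSMUSG00000030861, chr7:131410601-131448944) share chromosome 7 with Bcat2. Bckdhb (ENSMUSG00000032263) lies at chr9:83925145-84124240, Ivd (ENSMUSG00000027332) at chr2:118861954-118882909 and Hibch (ENSMUSG00000041426) at chr1:52844929-52920986. Dbt (ENSMUSG00000000340, chr3:116513070-116549981) and Mccc1 (ENSMUSG00000027709, chr3:35959312-36000678) are both on chromosome 3. The exons of Bckdha share 1171 of their 1899 bases with those of B3gnt8 on the opposite strand. In CPM, read counts scaled to a common library size, the mean was 6.29 for B3gnt8 and 91.3 for Bckdha. The library kit does not mark strand, so reads of the 2 genes cannot be told apart there. Bcat2 shares 622 of 3900 exon bases with 0610005C13Rik (0.653 CPM), and the shared stretches of Mccc1 are at most 321 of 10952 bases.

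RefSeq sequence before the start of transcription was at hand for 9 of the 10 genes (11 start sites, GRCm38.p6); none was given for Dbt. The 250 bases before each start were searched on both strands for 4 motifs of factors known to drive daily or fasting rhythms. The E-box CACGTG, bound by the clock activators, was found before none of the 11 starts and is present in 6.02% of all 32851 sequences. The D-box TTATGTAA was also found before none of them, against 0.819% of all. The nuclear receptor core AGGTCA was found before 2 starts, those of Ppm1k and the upstream start of Bckdhb, against 14.02% of all. The CACCC box (letters CACCC), which KLF factors can bind, was found before 5 starts, against 52.0% of all. The sequences of 4 genes are shown because the results turn on them: the phosphatase with the strongest rhythm, a BCKDH subunit, the transaminase and the kinase. Capitals mark matches of AGGTCA or CACCC on either strand, and each run ends on the base before the start.
Ppm1k, chr6:57535488-57535737, minus strand: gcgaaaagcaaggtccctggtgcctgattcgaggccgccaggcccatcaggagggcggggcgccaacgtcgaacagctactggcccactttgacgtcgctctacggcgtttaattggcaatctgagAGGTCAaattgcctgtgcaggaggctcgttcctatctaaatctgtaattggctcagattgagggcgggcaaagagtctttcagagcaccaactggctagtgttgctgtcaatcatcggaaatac
Bckdhb, chr9:83924887-83925136, plus strand: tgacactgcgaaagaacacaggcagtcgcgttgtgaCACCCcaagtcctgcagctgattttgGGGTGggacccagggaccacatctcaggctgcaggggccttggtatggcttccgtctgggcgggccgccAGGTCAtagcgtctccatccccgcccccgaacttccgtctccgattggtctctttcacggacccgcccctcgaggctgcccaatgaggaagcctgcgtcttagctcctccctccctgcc
Bcat2, chr7:45569903-45570152, plus strand: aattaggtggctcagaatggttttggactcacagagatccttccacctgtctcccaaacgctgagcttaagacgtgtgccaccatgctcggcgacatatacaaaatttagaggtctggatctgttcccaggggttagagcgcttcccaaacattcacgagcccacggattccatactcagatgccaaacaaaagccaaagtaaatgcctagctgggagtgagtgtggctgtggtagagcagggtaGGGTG
Bckdk, chr7:127903823-127904072, plus strand: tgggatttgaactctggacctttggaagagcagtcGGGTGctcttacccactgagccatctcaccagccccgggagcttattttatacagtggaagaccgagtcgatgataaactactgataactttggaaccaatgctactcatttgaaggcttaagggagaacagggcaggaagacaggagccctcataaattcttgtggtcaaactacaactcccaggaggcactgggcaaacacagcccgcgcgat
The AGGTCA match lies 124 bases before the start of Ppm1k and 119 bases before that of Bckdhb. The CACCC matches lie 5 bases before the start of Bcat2, 215 before that of Bckdk, and 214 and 188 before that of Bckdhb. Such matches are letters in a window and were not measured as bound sites.

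The deposited values gave back whole reads per gene, from 30986978 to 41018305 per library (median 35394512). Every member was measured in every library, with 228 to 1099 reads for Ppm1k, the lowest, and 12219 to 24241 for Acadsb. All 10 adipocyte markers checked, such as Adipoq and Plin1, were detected, and their sum ranged from 17654 to 55082 CPM under DRF and from 35021 to 56881 CPM under NRF. The 2 lowest sums, 25532 and 17654 CPM, were in replicate 4 of DRF ZT0 and replicate 1 of DRF ZT8, against 33450 CPM or more in the other libraries. These libraries also held 1398 and 638 CPM of 8 epithelial markers, against at most 124 CPM elsewhere. All 10 members were lower in the former library, and 9 in the latter, than in each of the other 3 mice of the group. Counts are therefore also given without both libraries. Replicate 4 of NRF ZT24 held 1573 CPM of liver markers, and the highest sum of skeletal muscle markers was 525 CPM. In bulk tissue, fewer cells of a type and less RNA per cell cannot be told apart.

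Per length of transcript, the members fell into an order that put the phosphatase far below the rest. Levels are given as TPM, recovered reads divided by exon length and scaled to a common total, as mean ± SD over all 56 mice. Ivd was at 208 ± 27.7 TPM, Acadsb at 202 ± 32.7, Bcat2 at 184 ± 38.6, Bckdha at 152 ± 22.6 and Bckdhb at 137 ± 22.0 TPM. Hibch followed at 110 ± 20.8 TPM, Dbt at 96.8 ± 11.01, Bckdk at 70.2 ± 7.54, Mccc1 at 53.5 ± 5.96 and Ppm1k at 7.09 ± 2.52 TPM. Neighbours at the top of this order were within their spread: Ivd exceeded Acadsb in 33 of 56 libraries, and Acadsb exceeded Bcat2 in 37. Bcat2 exceeded Bckdha in 43, Bckdha exceeded Bckdhb in 45 and Hibch exceeded Dbt in 41, also within their spread. The other steps held in nearly all libraries, with Bckdhb above Hibch and Dbt above Bckdk in 55 of 56 each, Bckdk above Mccc1 in 54 and Mccc1 above Ppm1k in all 56. The Bckdha level depends on how reads shared with B3gnt8 were assigned.

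**Figure D1:**
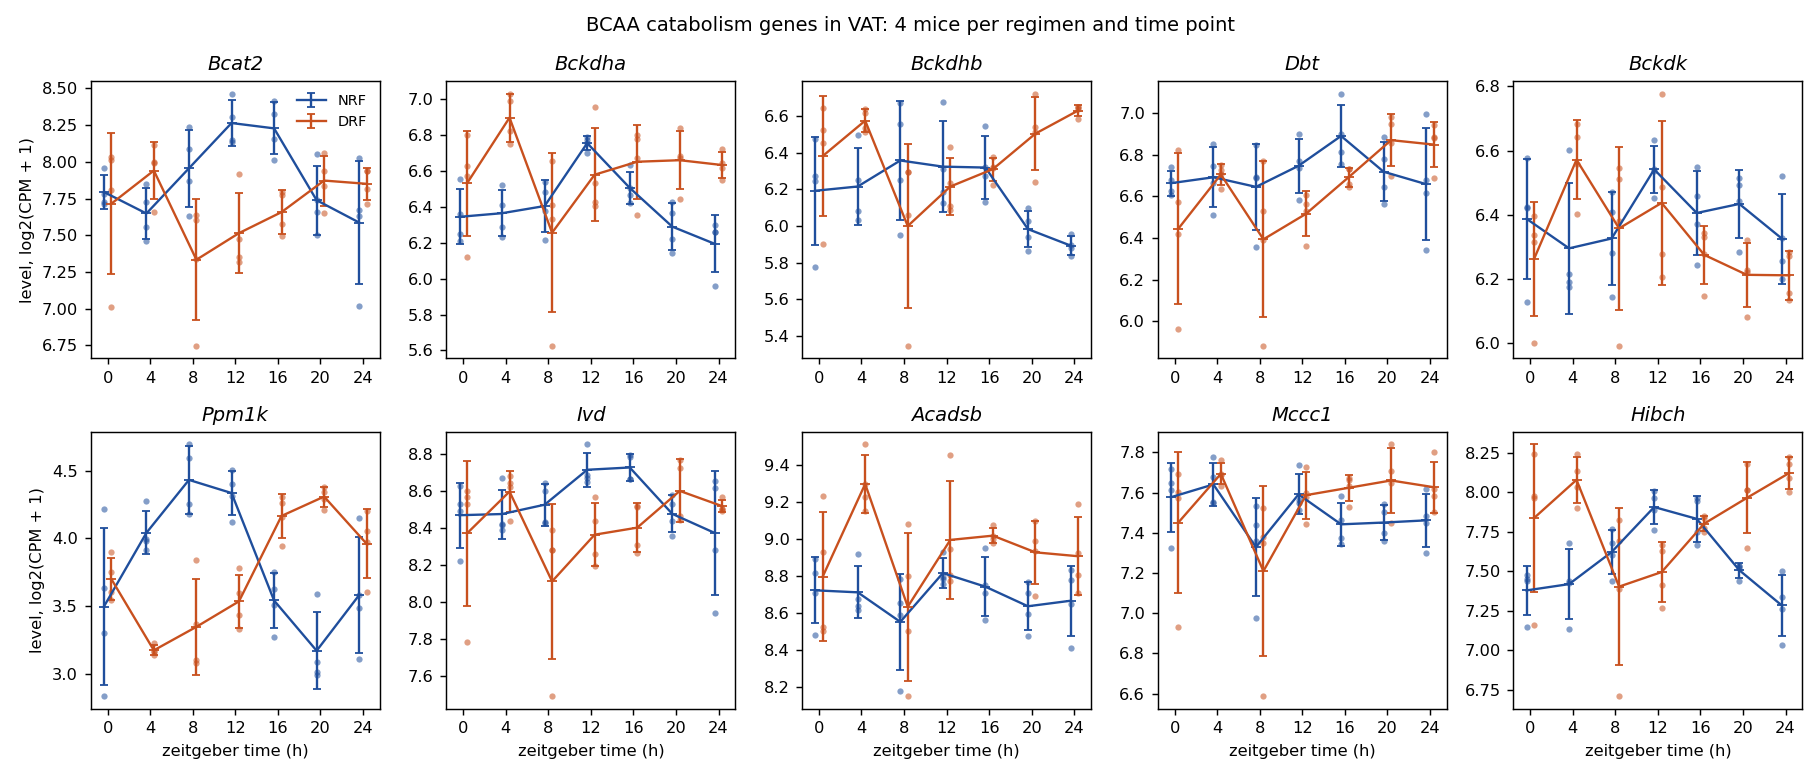
Level of each member as log2(CPM + 1) against zeitgeber time in hours, under NRF (blue) and DRF (orange); points are single mice, and lines join group means with SD bars (n = 4). Ppm1k runs in opposite directions in the 2 regimens, Acadsb lies higher under DRF at ZT4, and the low single points at DRF ZT0 and ZT8 belong to the 2 libraries with epithelial markers.

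Ppm1k, the phosphatase that activates BCKDH, had the strongest rhythm of the 10 and the one most plainly turned around by daytime feeding. Under NRF its level was highest at ZT8, late in the daily fast, with 18.1, 23.2, 17.2 and 24.9 CPM in the 4 mice. At the same time under DRF it was at 7.58, 13.3, 7.43 and 9.30 CPM, so the groups did not overlap. At ZT20 the order was reversed, with 11.04, 6.94, 7.06 and 7.49 CPM under NRF and 18.6, 19.9, 17.6 and 19.4 CPM under DRF. All DRF mice were then above all NRF mice. In limma fitted over all genes with Benjamini-Hochberg adjustment, Ppm1k was lower under DRF at ZT4, ZT8 and ZT12 by 0.87, 1.09 and 0.80 on the log2 scale (SE 0.19 each, adjusted p = 0.000751, 4.82e-05 and 0.00205). It was higher at ZT16 by 0.63 and at ZT20 by 1.14 (adjusted p = 0.0262 and 2.41e-05). At ZT0 and ZT24 it did not pass the test, with differences of 0.21 and 0.38. Averaged over the day, the level differed by -0.13 ± 0.07 (SE, adjusted p = 0.233), so no change of the mean was called.

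The rhythm of Ppm1k passed in each regimen separately, by JTK_CYCLE and Lomb-Scargle combined after MetaCycle and adjusted over all genes (adjusted p = 2.91e-06 under NRF and 8.92e-06 under DRF). A 24-h cosine put its peak at ZT 8.42 ± 0.434 (SE) under NRF and at ZT 18.6 ± 0.458 under DRF. The peak was 10.2 h later under DRF, with a 95% interval of 8.96 to 11.5 h. The interval, which is not adjusted over genes, holds neither 0 nor 12 h, the full inversion of the feeding time. After the NRF times were moved by 12 h, the limma test did not pass for Ppm1k (unadjusted p = 0.0174, adjusted p = 0.0883). The fitted change from trough to peak was 2.40-fold under NRF and 2.22-fold under DRF, and the amplitudes, 0.63 ± 0.07 and 0.57 ± 0.08 in log2 units, did not differ by the test (adjusted p = 0.961).

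Bckdk, the kinase opposing Ppm1k, changed far less over the day. Its group means stayed between 73.2 and 94.4 CPM over the 14 groups, and no time point passed the test between regimens. At ZT4 it was at 72.1, 96.1, 73.3 and 71.3 CPM under NRF and at 99.0, 83.6, 102 and 93.2 CPM under DRF. The groups overlapped there, and the difference was 0.28 in log2 (limma adjusted p = 0.0729). The combined test called no rhythm of Bckdk under NRF or DRF (adjusted p = 0.937 and 0.551), while the limma F test called 1 under DRF (adjusted p = 0.0470). That F-test call was lost with median-of-ratios library sizes, with voom weights, on the deposited values and without ZT24. It was also lost without replicate 2, 3 or 4 of every group. The rhythms of Bckdk were near the threshold of the test between regimens (limma adjusted p = 0.0538). They passed it with the replicate number as a block (0.0450), with total reads as library size (0.0288), among genes with at least 1 CPM (0.0376) and without replicate 2 of every group (0.0476). Without the 2 libraries with epithelial markers, the rhythm difference of Bckdk passed (adjusted p = 0.00372) and so did its rhythm under DRF by the combined test (adjusted p = 0.0315), with a fitted peak at ZT 7.38, in the day, when Ppm1k was low.

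The ratio of kinase to phosphatase transcript, taken within each library on the TPM scale, swung widely over the day. Under NRF the geometric mean ratio was lowest at ZT8, at 6.27 (5.02 to 8.33 in the 4 mice), and highest at ZT20, at 17.5 (13.2 to 20.9). Under DRF it was highest at ZT4, at 19.1 (17.2 to 20.8), and lowest at ZT20, at 6.33 (5.83 to 6.84). The ratios of the 2 regimens did not overlap at ZT4, ZT8, ZT12, ZT16 or ZT20, and overlapped at ZT0 and ZT24. The widest spread was at NRF ZT0, from 6.38 to 25.1 between mice. These ratios are a description with no test and say nothing of protein or phosphorylation.

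**Figure D2:**
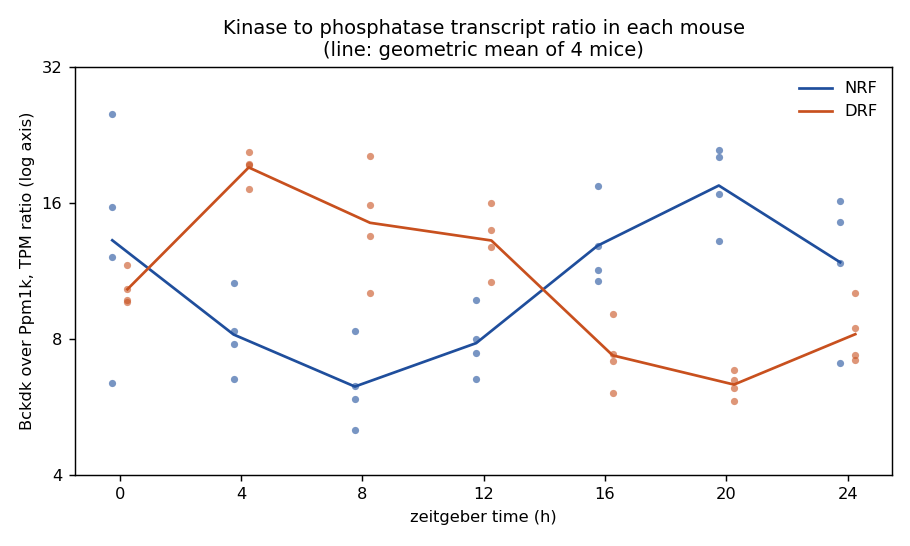
Ratio of Bckdk to Ppm1k transcripts (TPM, log axis) against zeitgeber time in hours; each point is a mouse, and lines join geometric means of 4 mice under NRF (blue) and DRF (orange). The ratio falls to about 6.3 at ZT8 under NRF and at ZT20 under DRF.

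Bcat2, the aminotransferase, was lower from ZT8 to ZT16 under daytime feeding and had a lower mean. Under NRF it was highest at ZT12, with 352, 280, 283 and 316 CPM. At ZT12 under DRF the 4 mice were at 162, 159, 177 and 240 CPM, all below the NRF mice. The difference was -0.75 ± 0.18 (SE) in log2, a level 0.594 times that under NRF (limma adjusted p = 0.00272). Bcat2 was also lower under DRF at ZT8 by 0.62 (adjusted p = 0.0131) and at ZT16 by 0.57 (adjusted p = 0.0362). The groups overlapped at ZT8 but not at ZT16. The call at ZT8 was lost without the 2 libraries with epithelial markers (-0.43, adjusted p = 0.0508). Over the whole day the Bcat2 level was lower under DRF by 0.26 ± 0.07 (adjusted p = 0.00519), which was -0.20 without these libraries (adjusted p = 0.00589). The call on the mean was lost without replicate 2 of every group (adjusted p = 0.0649). Its rhythm was called under NRF (adjusted p = 0.00219), with a fitted peak at ZT 13.3 ± 0.911 and a trough-to-peak change of 1.56-fold. Under DRF the combined test did not call it (adjusted p = 1), the limma F test did (adjusted p = 0.0451), and the fitted peak was at ZT 22.6 ± 1.38. That F-test call was lost on the deposited values, without ZT24 and without replicate 1, 2 or 3 of every group.

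In the BCKDH complex, both decarboxylase subunits differed in rhythm between regimens, while the core subunit Dbt did not pass at the main settings. At ZT24, Bckdhb was at 61.2, 56.1, 57.9 and 58.6 CPM under NRF and at 98.7, 99.5, 95.0 and 99.6 CPM under DRF. The groups were far apart, and the difference was 0.74 ± 0.16 (limma adjusted p = 0.00121). At ZT0, the same clock time, the groups overlapped and the difference was 0.19 (adjusted p = 0.503). Replicate 4 of DRF ZT0, a library with epithelial markers, was at 58.9 CPM. The other DRF mice were at 86.7 to 99.3 CPM there, and the NRF mice at 53.7 to 87.9 CPM. At ZT20 Bckdhb was higher under DRF by 0.52 (adjusted p = 0.0188). Bckdha was higher under DRF at ZT4, with 112, 107, 126 and 129 CPM against 77.2, 84.1, 91.0 and 74.3 CPM under NRF (0.53 ± 0.14, adjusted p = 0.00411). At ZT24 the difference of Bckdha was 0.44 (adjusted p = 0.0287), and it no longer passed without replicate 4 of NRF ZT24 (0.36, adjusted p = 0.127). At ZT0 the difference of Bckdha was 0.19 and did not pass (adjusted p = 0.438). The DRF library with epithelial markers was at 68.5 CPM there. The other DRF mice were at 94.2 to 110 CPM, above the NRF mice at 73.1 to 93.0 CPM. The rhythm of Bckdha was called under NRF (adjusted p = 0.00072) with a peak at ZT 12.1 ± 1.29, but not under DRF. The NRF call was lost without replicate 3 of every group (0.0888), and the limma F test did not call it on the deposited values or without ZT24. The difference in rhythm between regimens (adjusted p = 0.0160 for Bckdha and 0.000427 for Bckdhb) was lost for Bckdha without ZT24 (0.0695), on the deposited values (0.122) and without replicate 1, 2 or 3 of every group (0.0681, 0.0902 and 0.182). Dbt ranged between group means of 85.1 and 118 CPM, with a mean difference of -0.10 ± 0.05 (adjusted p = 0.209). With total reads as library size, its mean was lower under DRF by 0.14 (adjusted p = 0.0126) and its DRF rhythm was called (0.00572), as it was by the limma F test with the replicate number as a block (0.0473).

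The mean levels of Bckdha and Bckdhb were 0.15 ± 0.06 and 0.14 ± 0.06 higher under DRF in log2 (SE) and did not pass over all genes (adjusted p = 0.0628 and 0.126). Without the 2 libraries with epithelial markers they were 0.21 and 0.20 higher and passed (adjusted p = 0.000317 and 0.00189). Dbt was at -0.05 there and did not pass (adjusted p = 0.421).

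Beyond the complex, Ivd, isovaleryl-CoA dehydrogenase, had a course like that of Bcat2. At ZT8 it was at 344, 387, 343 and 399 CPM under NRF and at 179, 310, 310 and 335 CPM under DRF, with no overlap (-0.41 ± 0.15, limma adjusted p = 0.0448). The lowest DRF value came from a library with epithelial markers, and the call was lost without these libraries (-0.21, adjusted p = 0.217). The rhythm of Ivd was called under NRF (adjusted p = 0.0274, with a peak at ZT 13.5 ± 1.49), a call that was lost with total reads as library size (0.212), by the limma F test (0.0661) and without replicate 2, 3 or 4 of every group. Its mean difference was -0.15 ± 0.06 (adjusted p = 0.0541), and it passed with total reads (0.00257), among genes with at least 1 CPM (0.0343), with voom weights (0.0496), without replicate 4 of NRF ZT24 (0.0258) and without replicate 4 of every group (0.0225). Acadsb, the short and branched-chain acyl-CoA dehydrogenase, had a higher mean under DRF and no rhythm called in either regimen. At ZT4 it was at 628, 568, 729 and 599 CPM under DRF against 408, 397, 484 and 392 CPM under NRF, without overlap (0.59 ± 0.16, adjusted p = 0.00542). Its mean was higher under DRF by 0.24 ± 0.07 (adjusted p = 0.00719, lost without replicate 2 or 4 of every group), and the fitted amplitudes were 0.04 and 0.01. Mccc1, the biotin-carrying subunit of methylcrotonyl-CoA carboxylase, passed none of these tests over all 56 libraries, with group means from 151 to 206 CPM and a mean difference of 0.05 ± 0.06 (adjusted p = 0.624). Its mean was 0.11 higher under DRF once the 2 libraries with epithelial markers were left out (adjusted p = 0.0375).

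Hibch, the hydrolase of the valine route, kept its amplitude while its peak moved. At ZT24 it was at 161, 180, 152 and 130 CPM under NRF and at 255, 298, 288 and 271 CPM under DRF, and the groups were far apart (0.84 ± 0.16, limma adjusted p = 0.000355). At ZT0, the same clock time, the groups overlapped and the difference was 0.46 (adjusted p = 0.0576). The overlap came from replicate 4 of DRF ZT0, a library with epithelial markers, at 142 CPM. The other DRF mice were at 249 to 301 CPM there, against 141 to 177 CPM under NRF. Hibch was also higher under DRF at ZT4 by 0.66 (adjusted p = 0.00236). At ZT12 the order was the other way, with 249, 236, 216 and 257 CPM under NRF and 197, 153, 169 and 202 CPM under DRF. That difference, -0.41, did not pass (adjusted p = 0.0734) although the groups did not overlap. The fitted peak was at ZT 13.1 ± 0.898 under NRF and at ZT 22.9 ± 0.905 under DRF, 9.75 h later (95% interval 7.19 to 12.3 h). The trough-to-peak change was 1.498-fold under NRF and 1.493-fold under DRF. The rhythm was called under NRF (adjusted p = 2.18e-06) but under DRF only by JTK_CYCLE alone (adjusted p = 0.0266), by the limma F test (adjusted p = 0.000778), or without the 2 libraries with epithelial markers (adjusted p = 0.00294), among other settings. The mean of Hibch was 0.17 ± 0.06 higher under DRF (adjusted p = 0.0469), a call that was lost without replicate 4 of NRF ZT24 (0.16, adjusted p = 0.0600), with total reads as library size (0.0535), on the deposited values (0.126), without ZT24 (0.135) and without replicate 2, 3 or 4 of every group.

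**Figure D3:**
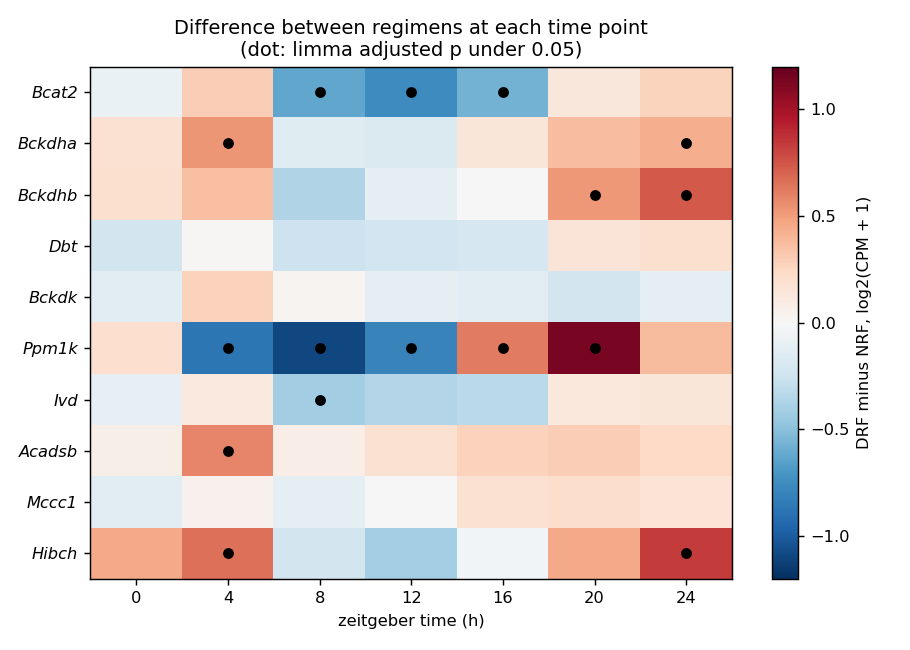
Difference between regimens (DRF minus NRF, log2(CPM + 1), colour scale) for each member (rows) at each zeitgeber time in hours (columns); dots mark a limma adjusted p under 0.05. The 16 dots are 7 lower and 9 higher values under DRF, and none is at ZT0.

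Over the 10 members, 16 of the 70 pairs of gene and time point passed the limma test, against 13.9% of all such pairs over the table. They were 9 higher (7.34% of all pairs) and 7 lower values (6.51%) under DRF, and 5 of the 16 were of Ppm1k. By time point, 19.5% of all genes passed at ZT4, 16.5% at ZT8, 16.1% at ZT12, 9.97% at ZT16, 13.1% at ZT20 and 11.3% at ZT24. None passed at ZT0, where 1 member, Hibch, had an unadjusted p under 0.05 and 10.5% of all genes passed. In DRF ZT0, all 10 members were lower in the library with epithelial markers than in each of the other mice. Without the 2 libraries with epithelial markers, 22 pairs passed, against 17.0% of all pairs. For the mean level, 3 of 10 members passed, against 21.7% of all genes and 33.5% of the 14301 genes with a mean of at least 1 CPM, so that this count is near the background. Acadsb and Hibch were higher (11.4% of all genes) and Bcat2 lower (10.3%). The balance turned with total reads as library size, where Acadsb was higher (8.61% of all genes) and Bcat2, Dbt, Bckdk and Ivd were lower (13.4%), and Hibch did not pass. The median difference was -0.0037 for the members and -0.00037 for all genes, in log2. Without the 2 libraries with epithelial markers, 6 members passed: Acadsb, Hibch, Bckdha, Bckdhb and Mccc1 were higher (14.6% of all genes) and Bcat2 lower (14.3%).

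For the rhythm, the F test of the 24-h cosine and sine between regimens called 6 of 10 members, against 36.0% of all genes and 53.4% of those with at least 1 CPM. The 6 were Bcat2, Bckdha, Bckdhb, Ppm1k, Ivd and Hibch, with adjusted p from 1.33e-12 for Ppm1k to 0.018 for Ivd. The count lies near that of expressed genes. Without the 2 libraries with epithelial markers it was 8, with Dbt and Bckdk added, against 40.6% of all genes. It was 4, without Bckdha and Ivd, on the deposited values, without ZT24 and without replicate 1 or 3 of every group (29.9% to 34.1% of all genes). When the NRF times were moved by 12 h, which aligns feeding by day with feeding by night, none of the 10 members still differed by limma, nor with voom weights, against 14.9% of all genes. At an unadjusted p under 0.05 there were 2, Dbt and Ppm1k. The count was also 0 without the 2 libraries with epithelial markers (18.9% of all genes), as was that of the amplitude. At the main settings, 3286 of the 14301 genes with at least 1 CPM differed after the alignment. Of the 9338 genes with a difference in rhythm, 2244 did. Whether 0 of 10 members is fewer than these shares was not tested. After the alignment Bckdk differed with total reads as library size, and Ppm1k without ZT24 and without replicate 1 of every group. The amplitude of no member differed by the Wald test of the cosine fit, where 1.44% of all genes passed, and none had an unadjusted p under 0.05.

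Rhythms were called by the combined test for 5 of 10 members under NRF (27.7% of all genes and 43.8% of those with at least 1 CPM) and for 1, Ppm1k, under DRF (15.8% and 24.8%). The NRF calls were Bcat2, Bckdha, Ppm1k, Ivd and Hibch. Whether fewer members were rhythmic under DRF depends on the test. The limma F test called 5 members in each regimen (33.7% of all genes under NRF and 26.7% under DRF), with Bckdhb in place of Ivd under NRF. This F test called fewer on the deposited values, without ZT24 and without replicate 2 or 3 of every group. There it called Bcat2, Ppm1k and Hibch under NRF (22.6% to 32.4% of all genes). Under DRF it called Ppm1k and Hibch (18.3% to 25.3%), and Ppm1k alone without replicate 2 (19.4%). Without the 2 libraries with epithelial markers the combined test called 4 under DRF (20.3% of all genes): Bckdhb, Bckdk, Ppm1k and Hibch. Fitted peaks of the 6 members with a difference in rhythm fell between ZT 8.42 and ZT 13.5 under NRF and between ZT 18.6 and ZT 22.9 under DRF. Ppm1k had the earliest fitted peak of the 6 in both. No test called a rhythm of Bckdha under DRF. Over all 56 libraries, neither the combined test nor the limma F test called a DRF rhythm of Ivd (limma adjusted p = 0.135). The limma F test called it without the 2 libraries with epithelial markers (adjusted p = 0.0374) and without replicate 4 of every group. The DRF peaks moved later without the 2 libraries with epithelial markers, to ZT 23.8 for Bcat2, ZT 23.99 for Bckdhb, ZT 23.4 for Ivd and ZT 23.85 for Hibch, and past lights on to ZT 1.39 for Bckdha, while that of Ppm1k was at ZT 18.7. The adipocyte marker sum moved the same way, from 39405 ± 3242 CPM at ZT24 to 50826 ± 4846 CPM at ZT12 under NRF and from 35042 ± 1184 CPM at ZT12 to 49818 ± 4519 CPM at ZT24 under DRF (mean ± SD, n = 4), and its part in these rhythms was not tested.

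**Figure D4:**
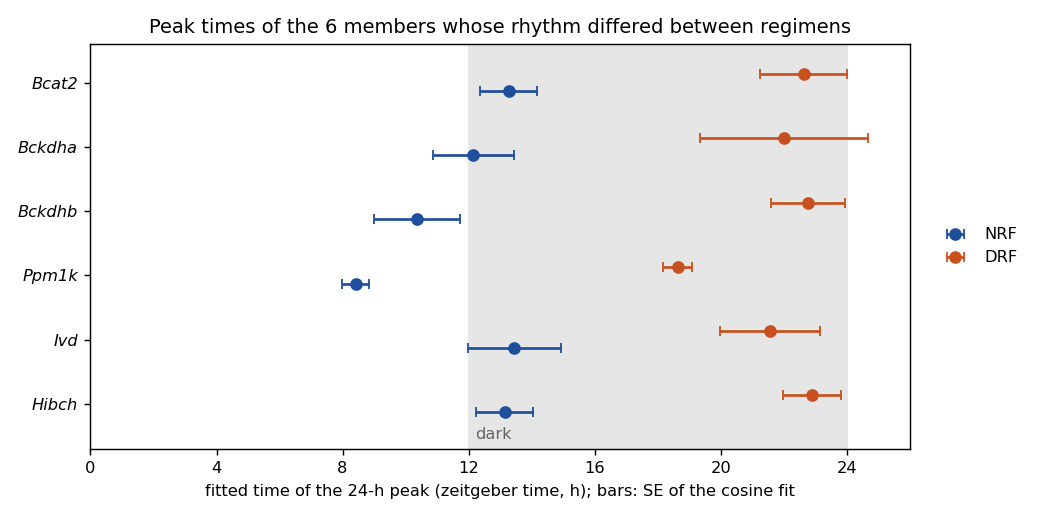
Fitted time of the 24-h peak (zeitgeber time in hours, bars are the SE of the cosine fit) under NRF (blue) and DRF (orange) for the 6 members whose rhythm differed between regimens; grey marks the dark period. The NRF peaks lie from ZT 8.42 to ZT 13.5 and the DRF peaks from ZT 18.6 to ZT 22.9.

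Of 22 other genes of branched-chain amino acid and propionyl-CoA breakdown, 9 had a higher and 1 a lower mean under DRF by limma (11.4% and 10.3% of all genes). Of the 14301 genes with at least 1 CPM, 2540 were higher and 2245 lower. The median difference was 0.13 for the 22 genes, against -0.00037 over all genes. Leaving out the 2 libraries with epithelial markers, 15 of the 22 were higher and 1 lower (14.6% and 14.3% of all genes). Those called higher over all 56 libraries included Pcca, a subunit of propionyl-CoA carboxylase (0.49 ± 0.06, adjusted p = 3.02e-08), Mmab, which makes the cobalamin cofactor of methylmalonyl-CoA mutase (0.43 ± 0.06, adjusted p = 5.53e-07), Dld, the dehydrogenase subunit shared by BCKDH and its sister complexes (0.38 ± 0.07, adjusted p = 0.000113), and the thiolase Acaa2 (0.26 ± 0.06, adjusted p = 0.000732). The lower one was Aldh6a1, methylmalonate semialdehyde dehydrogenase of the valine route (-0.20 ± 0.06, adjusted p = 0.013). The rhythm differed for 7 of the 22, against 36.0% of all genes and 53.4% of those with at least 1 CPM, and for 10 without these libraries (40.6% of all genes). Mmab had the smallest p (adjusted p = 1.26e-11), and its peak ran opposite to the 6 members with a difference in rhythm, at ZT 20.9 under NRF and ZT 10.4 under DRF. Aldh6a1 peaked at ZT 12.1 and ZT 21.7, like Bcat2 (adjusted p = 5.58e-05).

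Of 10 transporters and regulators, 8 differed in rhythm between regimens (36.0% of all genes and 53.4% of those with at least 1 CPM). Of these 8, 4 still differed after the 12-h alignment (2244 of the 9338 genes with a difference in rhythm did over the table). These counts were 9 and 5 without the 2 libraries with epithelial markers (40.6% of all genes, and 27.9% of those with a difference). Slc3a2, the heavy chain of the large neutral amino acid exchangers, was lower under DRF by 0.36 ± 0.07 (limma adjusted p = 0.000113) and peaked at ZT 20.2 under NRF and ZT 8.13 under DRF. Its partner Slc7a5 was low, at 5.47 CPM, and higher under DRF by 0.31 ± 0.10 (adjusted p = 0.0257). Slc43a1, a facilitative transporter of large neutral amino acids, was lower under DRF by 0.45 ± 0.09 (adjusted p = 0.000192). Its peak moved from ZT 9.52 to ZT 17.6, and it still differed after the alignment (adjusted p = 9.9e-06). Mlxipl, the carbohydrate-responsive transcription factor ChREBP, peaked at ZT 19.5 and ZT 11.9 with no change of mean called (0.09 ± 0.15, adjusted p = 0.724).

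The pyruvate and oxoglutarate dehydrogenase complexes, built like BCKDH, and their regulators showed higher means under DRF for 7 of 13 genes and lower for none (11.4% and 10.3% of all genes), with a median difference of 0.28. Of the 14301 genes with at least 1 CPM, 2540 were higher and 2245 lower. The counts for the 13 genes were 10 higher and none lower without the 2 libraries with epithelial markers (14.6% and 14.3% of all genes). Pdhx and Dlat, core subunits of the pyruvate dehydrogenase complex, were higher by 0.49 ± 0.10 and 0.46 ± 0.11 (limma adjusted p = 0.00029 and 0.00103), and the kinase Pdk3 by 0.28 ± 0.05 (adjusted p = 4.47e-05). In BCKDH the corresponding subunit Dbt was at -0.10. Among regulators with a difference in rhythm, the kinase Pdk2 peaked at ZT 11.6 under NRF and ZT 21.8 under DRF (adjusted p = 1.41e-09), Pdk4 at ZT 5.49 and ZT 18.8 (adjusted p = 0.00551), and the phosphatase Pdp2 at ZT 16.4 and ZT 6.17 (adjusted p = 2.4e-05). Neither the combined test nor the limma F test called the NRF rhythm of Pdk4 (limma adjusted p = 0.371), and the SE of its peak was 1.98 h. Its DRF rhythm was called by the limma F test (adjusted p = 0.0101) but not by the combined test (adjusted p = 0.0707).

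The 5 genes most like Bcat2 in the table were ranked by Pearson correlation of the 14 group means of log2(CPM + 1), over 14300 other genes with at least 1 CPM. They were Ivd (r = 0.946), Aldh6a1 (r = 0.933), Atraid (r = 0.929), Pcbp2 (r = 0.92) and Grina (r = 0.911). The former 2 act in branched-chain amino acid breakdown. The group means share libraries and the 2 libraries with epithelial markers, so these values are a description. Among the members, Bckdhb and Hibch (r = 0.897) and Bckdha and Hibch (r = 0.866) followed, and Bckdk and Ppm1k had the lowest value (r = -0.436).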

How the data were processed

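PolyA RNA of VAT from 56 mice was sequenced by the authors, with 150-base paired ends in their protocol. The submitters' processing notes name HISAT2 2.0.5, featureCounts 1.5.0-p3 and mm10. The deposited values are named TPM, but by their values each is a score: log2(CPM + 1) divided by exon length and scaled per library. Whole reads were recovered from it with GENCODE vM21 exon lengths (99.9961% of 1216282 values of at most 10000 reads within 0.02 of a whole number, 4% by chance). Lengths of 873 genes were taken from the values, and 3 genes were left unresolved.

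Recovered reads per library ranged from 30986978 to 41018305. Intervals are of the fitted shift of the peak, from the spread of mice around the cosine fits, and are not ranges of single mice. Levels are log2(CPM + 1) with the effective library sizes held in the values; the pseudocount of 1 understates changes of low genes. Mean level, rhythm difference, alignment by 12 h and single time points were tested with limma 3.58.1 in R 4.3.3 over 25936 genes, with Benjamini-Hochberg adjusted p under 0.05. The rhythm within a regimen came from the deposited values of 25939 genes, where p-values of JTK_CYCLE and of a Lomb-Scargle periodogram at 24 h were merged by Fisher's method, as MetaCycle does, and cosine fits followed the CircaCompare model, in Python 3.11.15 with numpy 2.4.6 and scipy 1.17.1. The tests of mean level, rhythm difference and rhythm within a regimen were first tested on simulated data with known answers. They found 197 of 200 mean differences and 200 of 200 rhythm differences. The combined rhythm test, run there on log2(CPM + 1), found 291 of 400 rhythms under NRF and 314 of 400 under DRF. Simulated mean differences were larger than those of all members, and simulated rhythms larger than those of all but Ppm1k. A rhythm that was not called may therefore have been missed. Replicate numbers name different mice.

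The members and lists were chosen with earlier results of these data known. All 10 members are named; of each other list, those with one of the 3 smallest p-values for mean or rhythm; and the 5 genes most like Bcat2. Of the marker lists, liver had 4 of 5 genes in the table. Sums under DRF and NRF (medians, CPM) were 329 and 418 for mesothelium, 57.5 and 38.6 for skeletal muscle, 33.6 and 22.6 for liver, 6.17 and 6.67 for lymphocytes, 751 and 865 for macrophages, 748 and 728 for endothelium, 1664 and 1981 for adipose progenitors and 476 and 274 for red cells, and their part in the results was not tested. Alternatives covered scaling, pseudocount, filter, replicate block, test, scale, ZT24 and left-out libraries. The counts of the other lists without the 2 libraries with epithelial markers were added after seeing the data.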

Additional observations from a re-analysis of the deposited data

Results flagged for a closer look

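The 24-h rhythm of 6 members differed between regimens by the limma F test adjusted over all genes, with adjusted p = 8.65e-05 for Bcat2, 0.016 for Bckdha, 0.000427 for Bckdhb, 1.33e-12 for Ppm1k, 0.018 for Ivd and 1.64e-06 for Hibch.

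In 10 of 140 sets of 4 values (each member in each of the 14 groups), 1 mouse lay far from the other 3 by Dixon's criterion. Chance gives about 1 in 20 such sets, and the sets of a group share their mice. Of these, 3 belong to the libraries with epithelial markers: Ivd at 7.79 log2(CPM + 1) and Mccc1 at 6.93 in replicate 4 of DRF ZT0, and Ivd at 7.49 in replicate 1 of DRF ZT8. The others were Bckdha at 5.96 in replicate 4 of NRF ZT24, Bckdk at 6.60 in replicate 2 of NRF ZT4, Ppm1k at 3.59 in replicate 1 of NRF ZT20, Ivd at 8.57 in replicate 4 of DRF ZT24 and at 8.67 in replicate 3 of NRF ZT4, and Hibch at 7.14 in replicate 3 of NRF ZT0 and at 7.44 in replicate 3 of NRF ZT20. The library of Bckdha in this list is the one with 1573 CPM of liver markers.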

How the results depend on the processing

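The mean differences of the 10 members kept their sign under all 14 alternatives each (0 of 140 changed). The balance of higher and lower mean calls turned with total reads as library size. The main counts were 3 members for the mean, 6 for the rhythm difference, 0 for the 12-h alignment, 0 for amplitude, 16 pairs by time point, and 5 (NRF) and 1 (DRF) for rhythms. The mean count became 5 with total reads as library size (22.1% of all genes), with Acadsb higher and Bcat2, Dbt, Bckdk and Ivd lower. It was 5 with genes of at least 1 CPM (37.8% of these) and 6 without the 2 libraries with epithelial markers (28.9% of all genes). With a replicate number left out it was 0 to 5 (14.7% to 17.7%). The 0 came without replicate 2 (14.9%), where 4 members had an unadjusted p under 0.05. After the 12-h alignment 1 member differed with total reads (Bckdk, 14.9% of all genes) and 1 without ZT24 (Ppm1k, 13.3%). With a replicate number left out, 0 to 1 differed (5.49% to 12.5%). The NRF rhythm count was 3 to 5 with a replicate left out (17.2% to 22.4%). Lomb-Scargle alone called 0 members in both regimens and 0 genes of the table, with 4 (NRF) and 1 (DRF) members at an unadjusted p under 0.05. Under DRF the rhythm count was 2 by JTK_CYCLE alone (20.2% of all genes), 5 by the limma F test (26.7%) and 3 on linear CPM (17.3%). It was 5 with total reads (17.3%), 6 by the limma F test with replicate block (27.7%) and 4 without the 2 libraries (20.3%). The limma F test called only Ppm1k and Hibch under DRF on the deposited values, without ZT24 and without replicate 3. Without replicate 2 it called only Ppm1k. The rhythm difference count was 4 on the deposited values (34.1% of all genes) and 4 without ZT24 (33.2%). With a replicate left out, it was 4 to 6 (28.4% to 31.9%). The count by time point was then 11 to 16, that of amplitude 0 and the DRF rhythm count 1 (7.48% to 11.1%). Where a cause is not stated, the cause was not tested.

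Same-numbered libraries deviated from their group means with correlations from -0.66 to 0.557 (mean 0.0412), and 16 of 56 libraries correlated best with their own number, so the numbers were not taken as pairs. With the replicate number as a block the mean count was 3 (22.4% of all genes), the rhythm difference 7 (36.8%), the alignment 0 (15.9%), the amplitude 0, the count by time point 17 and the NRF rhythm count 5 (34.6%). Leaving out replicate 4 of NRF ZT24 was chosen after seeing the marker sums and gave 3, 6, 0, 0, 16 and 5 in the same order as above, with Ivd in place of Hibch among the 3. Shares of all genes were then 22.3% for the mean, 35.6% for the rhythm difference, 15.1% for the alignment and 27.2% for the NRF rhythm. With 4 mice per group, the SE of a difference at 1 time point was 0.14 to 0.19 for the members named with a call, which limits what smaller shifts could be seen.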
